A study of Mus musculus with 9 samples.

Results

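The transcripts described here belong to 10 germline genes, Dppa3, Prdm1, Dazl, Ddx4, Mael, Tdrd1, Sycp1, Sycp3, Hormad1 and Tex101, taken by symbol from a count table of 33924 genes. RNA was sequenced from 9 libraries of male mouse embryonic stem cells, pluripotent cells of the early embryo, grown on gelatin in serum with LIF and given no treatment. The groups were 3 wild type libraries (JM8A in the titles), 3 UTX knockout libraries (A6 in the titles) and 3 libraries labelled MLL4 knockdown (JM8A with a further number in the titles). UTX is encoded by Kdm6a, an H3K27 demethylase, and MLL4 by Kmt2d, an H3K4 methyltransferase of enhancers. The labels explain neither A6 nor the further number, so a line or clone cannot be told apart from the perturbation. Separate cultures are not stated by the labels, so a p-value covers the spread among these libraries alone, and that spread may be technical.

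Germline genes are used in germ cells and kept low in most other cells. Many have CpG-rich promoters that become methylated by Dnmt3a, Dnmt3b and the cofactor Dnmt3l around implantation and are kept methylated by Dnmt1 and Uhrf1. In embryonic stem cells a variant Polycomb complex, PRC1.6, also represses a share of them through the DNA-binding proteins Mga with Max, which recognise the E-box CACGTG, and E2f6, which recognises GGCGGGA. DNA methylation was not measured here, so the name under which these genes were grouped, silenced by DNA methylation, is background and not a result.

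RefSeq (GRCm38.p6) gave a promoter window of 300 bases, 250 before and 50 after the start, for 9 of the 10 genes; Dppa3 had no entry. Windows of 5 genes are shown as examples. In at least 1 comparison with wild type the transcripts of Ddx4 and Dazl rose and those of Mael, Sycp1 and Tdrd1 fell. Windows of Prdm1, which also rose, and Tex101, which also fell, are not shown. The 5 windows lie at chr13:112652261-112652560 (Ddx4, minus strand), chr17:50293571-50293870 (Dazl, minus), chr1:166238695-166238994 (Mael, minus), chr3:102936051-102936350 (Sycp1, minus) and chr19:56825959-56826258 (Tdrd1, plus). Each is written 5′ to 3′ on the strand of its gene, and capitals mark CACGTG and, on either strand, GGCGGGA.
Ddx4: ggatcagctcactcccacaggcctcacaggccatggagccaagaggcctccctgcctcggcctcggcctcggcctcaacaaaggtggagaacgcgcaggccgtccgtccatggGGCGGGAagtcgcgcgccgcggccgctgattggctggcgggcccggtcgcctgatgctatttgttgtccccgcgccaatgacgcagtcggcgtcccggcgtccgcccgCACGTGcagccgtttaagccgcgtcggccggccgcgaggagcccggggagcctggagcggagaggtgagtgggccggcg
Dazl: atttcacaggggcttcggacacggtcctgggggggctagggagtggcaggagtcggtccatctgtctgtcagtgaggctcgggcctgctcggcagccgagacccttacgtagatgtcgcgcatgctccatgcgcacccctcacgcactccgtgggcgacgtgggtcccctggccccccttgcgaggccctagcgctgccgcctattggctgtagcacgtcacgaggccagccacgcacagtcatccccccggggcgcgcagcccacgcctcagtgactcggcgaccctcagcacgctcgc
Mael: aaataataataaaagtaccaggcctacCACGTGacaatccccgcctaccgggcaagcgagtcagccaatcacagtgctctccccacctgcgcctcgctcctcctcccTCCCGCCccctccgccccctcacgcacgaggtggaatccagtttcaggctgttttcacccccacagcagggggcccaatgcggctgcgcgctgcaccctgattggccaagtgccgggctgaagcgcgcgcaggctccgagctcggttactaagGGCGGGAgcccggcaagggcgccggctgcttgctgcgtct
Sycp1: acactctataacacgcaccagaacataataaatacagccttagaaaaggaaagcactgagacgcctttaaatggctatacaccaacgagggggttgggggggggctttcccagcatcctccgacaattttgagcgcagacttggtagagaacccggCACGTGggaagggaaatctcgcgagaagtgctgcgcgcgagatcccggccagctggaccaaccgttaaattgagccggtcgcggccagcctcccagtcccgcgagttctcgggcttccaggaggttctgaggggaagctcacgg
Tdrd1: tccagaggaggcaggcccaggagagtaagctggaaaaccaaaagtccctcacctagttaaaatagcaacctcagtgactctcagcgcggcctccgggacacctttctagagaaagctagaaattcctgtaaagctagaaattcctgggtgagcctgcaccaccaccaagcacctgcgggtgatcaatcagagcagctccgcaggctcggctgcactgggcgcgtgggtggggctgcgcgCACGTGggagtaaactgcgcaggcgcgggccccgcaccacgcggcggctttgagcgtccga
CACGTG was in the windows of 6 of the 9 genes (Ddx4, Mael, Sycp1, Sycp3, Tdrd1 and Hormad1) and in 7.24% of 27025 windows of all genes, or 10.3% of 10017 windows of tested genes. GGCGGGA, which does not overlap CACGTG in sequence, was in 3 of the 9 (Ddx4, Mael and Hormad1), against 11.4% of all windows and 21.4% of tested genes. The 9 windows held 15 to 38 CpG with a median of 21, against a median of 7 over all genes and 21 over tested genes. Ddx4 held the most (38), followed by Dazl (28), while Mael and Hormad1 held 24 each and Sycp3 the fewest (15). Dazl, Prdm1 and Tex101 held neither motif in these letters.

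Total counts per library lay between 18570746 and 23874816, and 14772 genes passed a filter on low counts and were tested, among them all 10 germline genes. Tex101 had 10 or more counts in all 3 wild type libraries and in none of the UTX knockout. Values are CPM (counts scaled to library size with TMM factors). Kdm6a averaged 78.9 ± 18.9 CPM (SD, n = 3) over wild type libraries and 16.4 ± 3.33 over UTX knockout libraries, and it fell by 2.27 on the log2 scale (SE 0.20). The transcript of MLL4, listed as Mll2, averaged 82.9 ± 37.9 CPM over wild type libraries and 72.1 ± 1.21 in the libraries labelled MLL4 knockdown, with a log2 difference of -0.20 (SE 0.27, adjusted p = 0.624). The fit called no lower transcript for that label, and the difference became -0.51 when wild type replicate 2 was left out (adjusted p = 0.0353) and 0.16 when wild type replicate 3 was (0.666). Against the UTX knockout Mll2 differed by -0.64 (interval -1.23 to -0.04, adjusted p = 0.0987), and with the replicate number as a block by -0.61 (adjusted p = 0.0376). Y-linked Uty averaged 14.1 ± 3.83 CPM in wild type, and it fell to 0.828 in UTX knockout cells and 0.987 in the labelled MLL4 knockdown. The 10 embryonic stem cell markers were all detected, with summed levels of 5178 to 6217 CPM in wild type cells, 6489 to 7078 in UTX knockout cells and 6511 to 7178 in the labelled MLL4 knockdown. Markers of spermatids were all under 10 counts in every group, with at most 0.221 CPM summed over 7 genes, and 3 of 5 gonadal support cell markers were under 10 counts.

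All 10 transcripts were detected in wild type cells, over a wide range. Per kilobase of annotated exon (GENCODE M21, GRCm38), the wild type order was Dppa3 (38.5 ± 9.04 CPM per kb), Hormad1 (20.1 ± 7.40), Ddx4 (17.1 ± 0.704), Mael (6.35 ± 0.391), Sycp3 (4.98 ± 2.29), Dazl (3.64 ± 0.289), Sycp1 (2.22 ± 0.118), Prdm1 (1.82 ± 0.557), Tdrd1 (0.933 ± 0.0665) and Tex101 (0.440 ± 0.132), each with SD and n = 3. The means of Hormad1 and Ddx4, of Mael and Sycp3, of Sycp3 and Dazl, and of Sycp1 and Prdm1 lay within 1 SD of the wider of each pair. The median tested gene stood at 4.78 CPM per kb, so the means of Dppa3, Hormad1, Ddx4, Mael and Sycp3 lay above it in wild type. The Sycp3 mean did so through replicate 1 (7.60), while replicates 2 and 3 lay below the median (3.98 and 3.37). Among 13216 tested genes with a length, Dppa3 was at percentile 90.6 in wild type cells, 73.1 in UTX knockout cells and 46.5 in the labelled MLL4 knockdown. Ddx4 was at percentile 78.3, 79.5 and 86.6, and Tex101 at 12.7, 4.39 and 10.1. In the labelled MLL4 knockdown the highest per length were Ddx4 (28.3 ± 3.05) and Hormad1 (20.5 ± 2.02), and Dppa3, at 4.0 ± 0.254, stood below Sycp3 and Dazl as well.

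**Figure D1:**
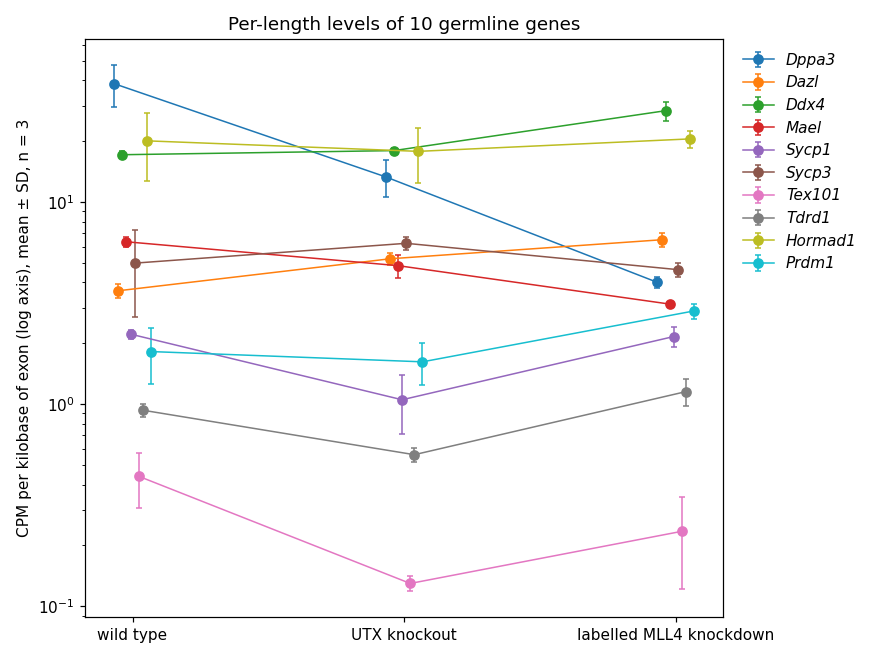
Levels per length of the 10 germline transcripts in CPM per kilobase of exon, with a log axis, for the 3 groups (mean and SD, n = 3 each). Dppa3 moves from 38.5 in wild type to 4.0 in the labelled MLL4 knockdown, while Ddx4 moves from 17.1 to 28.3 and Hormad1 stays between 17.8 and 20.5.

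The germline genes moved in both directions. In the UTX knockout against wild type 5 of 10 passed the test: Dazl rose, and Dppa3, Sycp1, Tdrd1 and Tex101 fell. Of all tested genes 15.5% passed in this comparison, 6.55% higher and 8.92% lower, and the median log2 fold change was -0.28 over the 10 genes and -0.01 over all tested genes. In the labelled MLL4 knockdown against wild type 5 of 10 passed: Dazl, Ddx4 and Prdm1 rose, and Dppa3 and Mael fell. Here 26.6% of all tested genes passed, 10.8% higher and 15.8% lower, and the median was -0.00 over the 10 genes and -0.02 over all. Between the labelled MLL4 knockdown and the UTX knockout 6 of 10 passed, with Ddx4, Prdm1, Sycp1 and Tdrd1 higher and Dppa3 and Mael lower in the labelled MLL4 knockdown. In this comparison 28.9% of all genes passed, 13% higher and 16% lower, and the median was 0.48 over the 10 genes and -0.02 over all. The 3 comparisons share libraries, so they are not independent of each other. In these bulk samples fewer cells that hold a transcript and less of it per cell cannot be told apart.

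**Figure D2:**
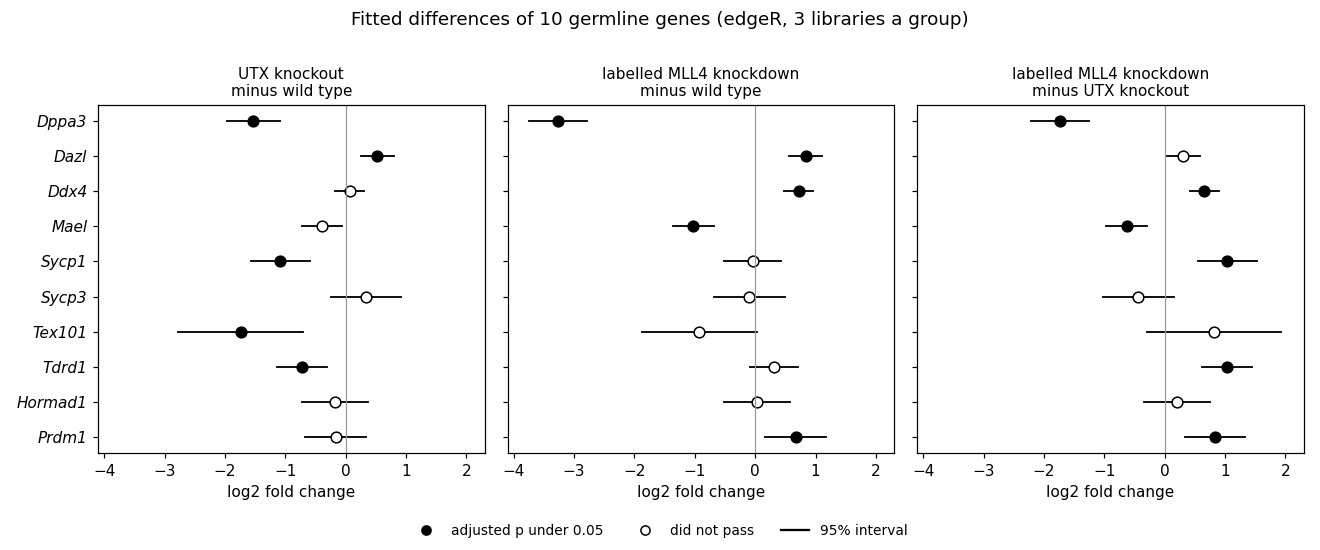
Log2 fold changes of the 10 germline transcripts in the 3 comparisons, with 95% intervals of the edgeR fit and filled points where the Benjamini-Hochberg adjusted p was under 0.05. Dppa3 lies below 0 in all 3 (-1.53, -3.26 and -1.73), whereas Sycp1 and Tdrd1 lie below 0 in the UTX knockout against wild type (-1.08 and -0.73) and above 0 between the perturbed groups (1.04 and 1.04).

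Dppa3 (Stella; chr6:122626410-122630272, plus strand) encodes a maternal and primordial germ cell protein that protects DNA from demethylation in the zygote. It measured 38.2, 39.7 and 25 CPM in wild type replicates 1 to 3, 14.7, 10.3 and 10.5 in UTX knockout cells, and 3.77, 3.62 and 3.32 in the labelled MLL4 knockdown. The 3 groups did not overlap, with wild type highest and the labelled MLL4 knockdown lowest. The log2 fold change was -1.53 in the UTX knockout (SE 0.20, 95% interval -1.97 to -1.09, adjusted p = 0.00112) and -3.26 in the labelled MLL4 knockdown (SE 0.22, -3.75 to -2.78, adjusted p = 7.00e-06). Between the perturbed groups it was -1.73 (SE 0.22, adjusted p = 0.000321). All 3 calls held when each of the 9 libraries was left out in turn. Of the 50-base words in its transcripts 16.5% also occur in Dppa3-ps, Gm15620 or Gm47576, so part of its reads could be split between copies. Markers of other cell states moved too. Summed 2-cell-like markers (4 genes) lay at 10.5 to 28.5 CPM in wild type cells, 0.951 to 3.68 in UTX knockout cells and 3.21 to 14.4 in the labelled MLL4 knockdown, and summed trophectoderm markers (7 genes) at 64.8 to 493, 34.6 to 62.1 and 38.6 to 43.0. Summed feeder or fibroblast markers (8 genes) lay at 13.7 to 24.5, 9.47 to 10.3 and 3.44 to 4.87 CPM in the same order of groups. Summed primitive endoderm markers (7 genes) lay at 12.9 to 17.1, 15.6 to 19.4 and 30.0 to 32.6. Their part in the result was not tested.

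Of the 4 tested genes nearest to Dppa3, Apobec1 and Gdf3 on 1 side and Nanog and Slc2a3 on the other, Gdf3 fell in the UTX knockout and none fell in the labelled MLL4 knockdown. Apobec1, a cytidine deaminase, rose in both groups (0.67, SE 0.16, and 0.72, SE 0.16; adjusted p = 0.0166 and 0.00676), although the first call was lost without UTX knockout replicate 2 (0.67, adjusted p = 0.0616). Gdf3, a TGF-beta family ligand, fell in the UTX knockout (-0.78, SE 0.11, adjusted p = 0.00192) and rose in the labelled MLL4 knockdown (0.51, SE 0.11, adjusted p = 0.00681). Nanog, a pluripotency factor, rose in the labelled MLL4 knockdown (0.67, SE 0.12, adjusted p = 0.00256). Slc2a3 differed by 0.54 and 0.53, with adjusted p of 0.0728 and 0.0599. The neighbours of other members moved in part with them. In the labelled MLL4 knockdown Il6st, beside Ddx4, rose as Ddx4 did (0.96, SE 0.15, adjusted p = 0.00116). Dusp27 and Gpa33, beside Mael, fell there as Mael did (-1.24, SE 0.28, and -0.97, SE 0.17, with adjusted p = 0.00819 and 0.00193). Dusp27 also fell in the UTX knockout (-1.85, SE 0.29, adjusted p = 0.00269), where Mael did not pass. The other neighbours of Ddx4 and Mael passed in neither comparison with wild type. In the labelled MLL4 knockdown, where Dazl rose, its neighbours Rftn1 and Plcl2 rose too (0.92, SE 0.19, and 1.63, SE 0.18; adjusted p = 0.00448 and 0.000119), while in the UTX knockout neither passed. Vwa2 and Afap1l2, on 1 side of Tdrd1, fell in the UTX knockout (-1.32, SE 0.29, and -1.59, SE 0.26; adjusted p = 0.0126 and 0.00331). The Vwa2 call was lost without UTX knockout replicate 2 or 3 (0.0659 and 0.0602). Vwa2 and Afap1l2 also fell in the labelled MLL4 knockdown, where Tdrd1 did not (-0.92, SE 0.29, and -2.31, SE 0.27, with adjusted p = 0.0350 and 0.000200). There the Vwa2 call was lost without wild type replicates 1 or 2 or labelled MLL4 knockdown replicates 2 or 3. All 4 neighbours of Tex101 fell in the labelled MLL4 knockdown, where Tex101 itself did not pass. Phldb3, Lypd3, Ceacam10 and Dmrtc2 differed there by -4.61, -4.76, -4.14 and -1.04 (adjusted p = 3.00e-05, 0.00114, 0.00100 and 0.0120). The Dmrtc2 call was lost without labelled MLL4 knockdown replicate 2 (0.0625). Of 16 alternative settings, Lypd3 had a result in 14 and Phldb3, Ceacam10 and Dmrtc2 in 15. Over the left-out fits Lypd3 ranged from -6.64 to -4.27. These 4 genes could enter the test through their higher level in other groups, and their levels are not given here. Their calls are therefore not counted as support for a fall of this region. Ceacam10 also fell in the UTX knockout (-2.06, SE 0.51, adjusted p = 0.0201). That call was lost without wild type replicates 2 or 3 or UTX knockout replicates 2 or 3. Of the 40 neighbours of the 10 genes, 22.5% passed in the UTX knockout, 42.5% in the labelled MLL4 knockdown and 32.5% between the perturbed groups, against 15.5%, 26.6% and 28.9% of all tested genes. These shares include the neighbours of Tex101.

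Prdm1 (Blimp1; chr10:44437177-44528501, minus strand) encodes a transcriptional repressor that starts the primordial germ cell programme. It measured 13.5, 7.37 and 9.58 CPM in wild type cells, 11.3, 8.56 and 7.20 in UTX knockout cells, and 17.5, 16.2 and 14.7 in the labelled MLL4 knockdown, where every library lay above all others. The log2 fold change was 0.67 against wild type (SE 0.23, adjusted p = 0.0493) and 0.84 against the UTX knockout (SE 0.23, adjusted p = 0.0190). The first call rested on single libraries. It was lost without wild type replicates 2 or 3 (adjusted p = 0.133 and 0.111), without UTX knockout replicate 2 (0.0671) and without labelled MLL4 knockdown replicates 1, 2 or 3 (0.127, 0.120 and 0.0826). It was also lost with a stricter filter on low levels (0.63, adjusted p = 0.0760) and in a fit of only the 6 libraries compared (0.68, adjusted p = 0.0610). The second call was lost without UTX knockout replicates 2 or 3 (0.0713 and 0.0820) and without labelled MLL4 knockdown replicates 1 or 2 (0.0630 and 0.0562). In the UTX knockout against wild type the difference was -0.17 (interval -0.67 to 0.34, adjusted p = 0.670).

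**Figure D3:**
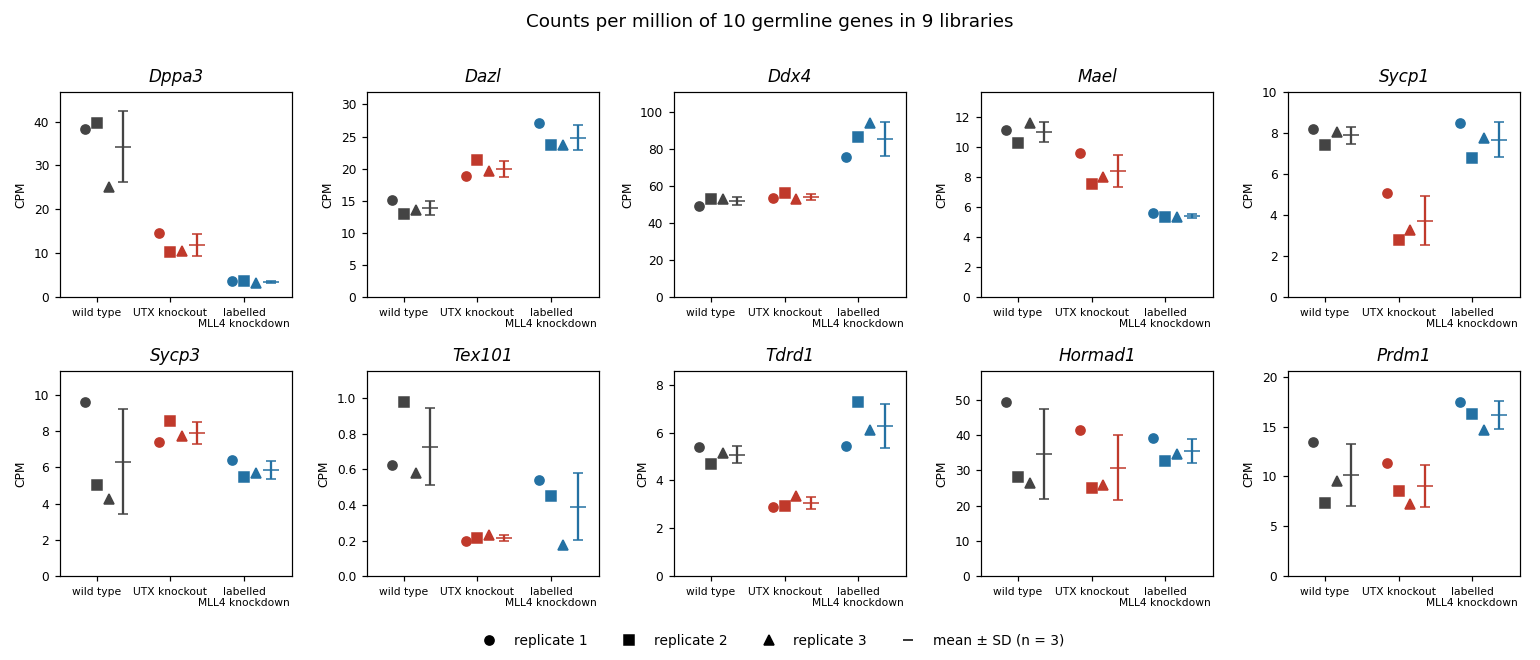
CPM of the 10 germline transcripts in each library, 1 panel a gene, with 3 points a group and the mean with its SD. The Dppa3 panel steps down over the 3 groups, the Dazl panel steps up, Ddx4 and Prdm1 are highest in the labelled MLL4 knockdown, and Sycp1 and Tdrd1 are lowest in the UTX knockout.

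Dazl (chr17:50279395-50293636, minus strand), an RNA-binding protein that licenses germ cells for gametogenesis, measured 15.1, 13.0 and 13.6 CPM in wild type cells, 18.9, 21.4 and 19.7 in UTX knockout cells, and 27.1, 23.7 and 23.7 in the labelled MLL4 knockdown. The 3 groups did not overlap and lay in that order from low to high. The log2 fold change was 0.53 in the UTX knockout (SE 0.13, adjusted p = 0.0182) and 0.84 in the labelled MLL4 knockdown (SE 0.13, adjusted p = 0.000848). Leaving out UTX knockout replicate 2 or 3 ended the first call (adjusted p = 0.0863 and 0.0516), as did a fit of only the 6 libraries compared (0.0622). Between the perturbed groups the difference of 0.31 (SE 0.12) had an adjusted p of 0.0810, and of 0.0416 in a fit of those 6 libraries. Dazl and Dppa3 thus changed in opposite directions in both comparisons with wild type.

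Ddx4 (Vasa; chr13:112598333-112652475, minus strand), a germ cell RNA helicase, measured 49.2, 52.7 and 53.0 CPM in wild type cells and 53.6, 55.9 and 52.8 in UTX knockout cells, which overlapped. In the labelled MLL4 knockdown it measured 75.6, 86.3 and 93.9, above every other library. It rose by 0.72 on the log2 scale against wild type (SE 0.11, adjusted p = 0.000875) and by 0.66 against the UTX knockout (SE 0.11, adjusted p = 0.00157). The difference between UTX knockout and wild type was 0.07, with an interval of -0.17 to 0.31. Both calls held without each of the 9 libraries.

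Mael (Maelstrom; chr1:166201201-166238747, minus strand) and Tdrd1 (chr19:56826209-56870012, plus strand) act in the piRNA pathway, which silences transposons in male germ cells, Mael as a nuage protein and Tdrd1 as a Tudor scaffold for Piwi proteins. Mael measured 11.2, 10.3 and 11.6 CPM in wild type cells, 9.62, 7.57 and 7.99 in UTX knockout cells, and 5.59, 5.34 and 5.31 in the labelled MLL4 knockdown, with no overlap between groups. It fell in the labelled MLL4 knockdown, at -1.02 against wild type on the log2 scale (SE 0.16, adjusted p = 0.000896) and -0.63 against the UTX knockout (SE 0.16, adjusted p = 0.0119). Its difference of -0.39 in the UTX knockout did not pass (SE 0.15, adjusted p = 0.102). Tdrd1 differed from Mael in which group was low. It measured 5.40, 4.69 and 5.15 CPM in wild type cells, 2.90, 2.94 and 3.34 in UTX knockout cells, and 5.43, 7.29 and 6.11 in the labelled MLL4 knockdown, so the UTX knockout libraries lay below all others. Tdrd1 fell in the UTX knockout (-0.73, SE 0.19, adjusted p = 0.0244) and was higher in the labelled MLL4 knockdown than there (1.04, SE 0.19, adjusted p = 0.00235). The fall was lost without wild type replicate 3 (adjusted p = 0.0561), UTX knockout replicate 2 (0.0949) or 3 (0.0619), and in a fit of the 6 libraries compared (0.0655). Against wild type the labelled MLL4 knockdown differed by 0.31 (interval -0.09 to 0.71, adjusted p = 0.237).

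Sycp1 (chr3:102818499-102936100, minus strand), Sycp3 (chr10:88459569-88473236, plus strand) and Hormad1 (chr3:95559677-95587671, plus strand) are parts of the meiotic chromosome axis and the synaptonemal complex, Sycp1 as the transverse filament, Sycp3 in the lateral element and Hormad1 on unsynapsed axes. Sycp1 measured 8.21, 7.42 and 8.06 CPM in wild type cells, 5.10, 2.81 and 3.30 in UTX knockout cells, and 8.50, 6.79 and 7.75 in the labelled MLL4 knockdown. The UTX knockout lay below every library of the other groups, which overlapped. Sycp1 fell by 1.08 in the UTX knockout (SE 0.22, adjusted p = 0.00927), was higher by 1.04 in the labelled MLL4 knockdown than in the UTX knockout (SE 0.22, adjusted p = 0.00566), and differed from wild type there by -0.04 (interval -0.51 to 0.43). Both calls held without each of the 9 libraries.

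Sycp3 and Hormad1 passed in no comparison, except that Sycp3 was lower in the labelled MLL4 knockdown than in the UTX knockout in a fit of those 6 libraries (-0.43, adjusted p = 0.0418, against 0.244 over all 9). Sycp3 measured 9.61, 5.03 and 4.25 CPM in wild type cells, 7.41, 8.56 and 7.71 in UTX knockout cells, and 6.40, 5.48 and 5.67 in the labelled MLL4 knockdown. Wild type replicate 1 was the highest of the 9. Without it the UTX knockout difference moved from 0.33 (SE 0.27, adjusted p = 0.428) to 0.78 (adjusted p = 0.0139). Sycp3 reads are uncertain: its exons overlap those of Chpt1 on the opposite strand over 660 bases, 52.2% of their length, and the strand setting of the counting is not given. Chpt1, a choline phosphotransferase, was also higher in the UTX knockout (0.48, SE 0.15, adjusted p = 0.0479), a call that was lost without each of 8 of the 9 libraries, all but UTX knockout replicate 1, with adjusted p up to 0.202. Like Sycp3, Chpt1 was lower in the labelled MLL4 knockdown than in the UTX knockout (-0.59, SE 0.15, adjusted p = 0.0122). That call was lost without UTX knockout replicate 2 (0.0642) or labelled MLL4 knockdown replicate 2 (0.0510). The part of Chpt1 reads in the Sycp3 differences was not tested. Hormad1 measured 49.4, 28.2 and 26.5 CPM in wild type cells, 41.4, 25 and 25.9 in UTX knockout cells, and 39.3, 32.5 and 34.5 in the labelled MLL4 knockdown. Replicate 1 was the highest in every group, and groups overlapped. Its differences from wild type were -0.17 (interval -0.72 to 0.38) and 0.03 (-0.52 to 0.58), and 22.9% of its 50-base words also occur in Gm15529 or Gm7167.

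Tex101 (chr7:24668007-24676675, minus strand), a cell surface glycoprotein of germ cells, was the lowest of the 10. It had 12, 23 and 13 counts in wild type cells, 4, 5 and 5 in UTX knockout cells, and 10, 10 and 4 in the labelled MLL4 knockdown, or 0.62, 0.98 and 0.58, then 0.20, 0.22 and 0.23, then 0.54, 0.45 and 0.18 CPM. All perturbed libraries lay below wild type. It fell by 1.74 in the UTX knockout (SE 0.47, interval -2.77 to -0.71, adjusted p = 0.0297) and differed by -0.92 in the labelled MLL4 knockdown (SE 0.43, adjusted p = 0.139). The fall was lost without wild type replicate 2 (adjusted p = 0.0899), without UTX knockout replicates 1, 2 or 3 (0.0644, 0.107 and 0.0892) and with DESeq2 (0.0508). Since Tex101 could enter the test through its higher wild type level and not through the UTX knockout, its call is not counted as support for a fall of the group.

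By the titles, lane 2 carried replicates 1 and 3 of each group and lane 1 carried replicate 2, which leaves 1 library a group in lane 1 and no test there. In lane 2 alone, with 2 libraries a group, 0 of the 10 genes passed in the UTX knockout against wild type, where 74 of all genes did. The log2 fold changes were -1.32 for Dppa3 (adjusted p = 0.0738), 0.43 for Dazl (0.209), -0.95 for Sycp1 (0.130), -0.76 for Tdrd1 (0.172) and -1.46 for Tex101 (0.290). In the labelled MLL4 knockdown against wild type, lane 2 alone gave -3.16 for Dppa3 (adjusted p = 0.00364), 0.82 for Dazl (0.0240), 0.73 for Ddx4 (0.0253), -1.06 for Mael (0.0258) and 0.48 for Prdm1 (0.308). Between the perturbed groups Dppa3 (-1.84, adjusted p = 0.0156) and Ddx4 (0.67, 0.0325) passed, while Sycp1 (0.95, 0.0646), Tdrd1 (0.89, 0.0627), Mael (-0.69, 0.0752) and Prdm1 (0.79, 0.111) did not. Each difference listed here for lane 2 kept the sign it had over both lanes.

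Over the 9 libraries, Dppa3 correlated with Mael (Pearson r of log2 CPM 0.967) and inversely with Dazl (-0.945) and Ddx4 (-0.892), while Sycp1 correlated with Tdrd1 (0.797). These values describe 9 libraries in 3 groups that share lanes, and carry no p. Tested genes were also ranked by the same measure, leaving out symbols of clones, gene models, small RNAs and pseudogenes. Most like Dppa3 in that ranking were Abcd4 (0.994), Bspry (0.994) and Rhpn2 (0.993). Those most like Mael were Col5a3, Wwc1 and Ptk2b (0.989, 0.989 and 0.986). Ddx4 was nearest to Fst, Fgf1 and Ckap4 (0.981, 0.979 and 0.977), and Dazl to Nras, Dkc1 and Ccdc137 (0.985, 0.978 and 0.977). Sycp1 was nearest to Ina, Amd1 and Gypc (0.988, 0.987 and 0.985). Tdrd1 was nearest to Zfp783 (0.979), Sulf1 (0.970) and Kdm6a itself (0.960).

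Of 44 other germline genes, 38 were tested. In the UTX knockout 4 rose and 6 fell, with a median of -0.02. In the labelled MLL4 knockdown 4 rose and 12 fell (median -0.40), and between the perturbed groups 4 were higher and 12 lower (median -0.26). These are 10, 16 and 16 of 38, where 15.5%, 26.6% and 28.9% of all tested genes passed. The list was chosen with earlier results of these data known. Tdrd12, a Tudor protein of the piRNA pathway, fell from 54.5, 55.4 and 45.6 CPM in wild type cells to 27.2, 22.4 and 19.7 in UTX knockout cells and 13.2, 6.79 and 9.30 in the labelled MLL4 knockdown (-1.17, SE 0.21, adjusted p = 0.00521, and -2.41, SE 0.22, adjusted p = 4.12e-05). Stra8, which drives entry into meiosis, stood at 6.44, 4.39 and 4.57 CPM in wild type cells, 3.04, 2.29 and 2.18 in UTX knockout cells and 0.915, 0.634 and 0.487 in the labelled MLL4 knockdown, where it fell by 2.92 (SE 0.30, adjusted p = 7.82e-05). The Stra8 call in the UTX knockout was lost without UTX knockout replicate 2 or 3 (adjusted p = 0.100 and 0.0962). Smc1b, a meiotic cohesin, and Dpep3, a membrane dipeptidase of testis, fell in the labelled MLL4 knockdown alone among the comparisons with wild type (-1.74, SE 0.24, and -2.58, SE 0.33), and both were lower there than in the UTX knockout (-2.20 and -2.62).

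Sohlh2, a transcription factor of early gametogenesis, moved the other way. It measured 22.4, 16.2 and 18.0 CPM in wild type cells, 28.4, 29.6 and 28.5 in UTX knockout cells and 50.8, 48.3 and 50.2 in the labelled MLL4 knockdown, in steps that did not overlap. It rose by 1.40 in the labelled MLL4 knockdown (SE 0.13, adjusted p = 4.83e-05) and by 0.61 in the UTX knockout (SE 0.13, adjusted p = 0.0110), where the call was lost without UTX knockout replicate 2 (0.0502). Tuba3a, a testis alpha-tubulin, rose in the UTX knockout from 14.6 ± 1.2 to 38.1 ± 7.74 CPM (1.38, SE 0.15, adjusted p = 0.000568). Tdrkh, a Tudor partner of Piwi proteins, fell there from 10.4 ± 1.48 to 4.11 ± 0.626 CPM (-1.34, SE 0.21, adjusted p = 0.00268). Both genes were also called in the same directions in the labelled MLL4 knockdown against wild type. Over the left-out fits Tuba3a ranged from 0.53 to 0.67 in that comparison and Tdrkh from -0.84 to -0.57. Each of these 2 calls was lost in 3 of the 9 fits. Hormad2, the paralog of Hormad1, was higher in the labelled MLL4 knockdown than in the UTX knockout (1.38, SE 0.22, adjusted p = 0.00113). It was also called lower in the UTX knockout than in wild type, at -0.98 to -0.75 over the left-out fits. That call was lost without UTX knockout replicate 2 or 3 (adjusted p = 0.0551 and 0.0854).

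**Figure D4:**
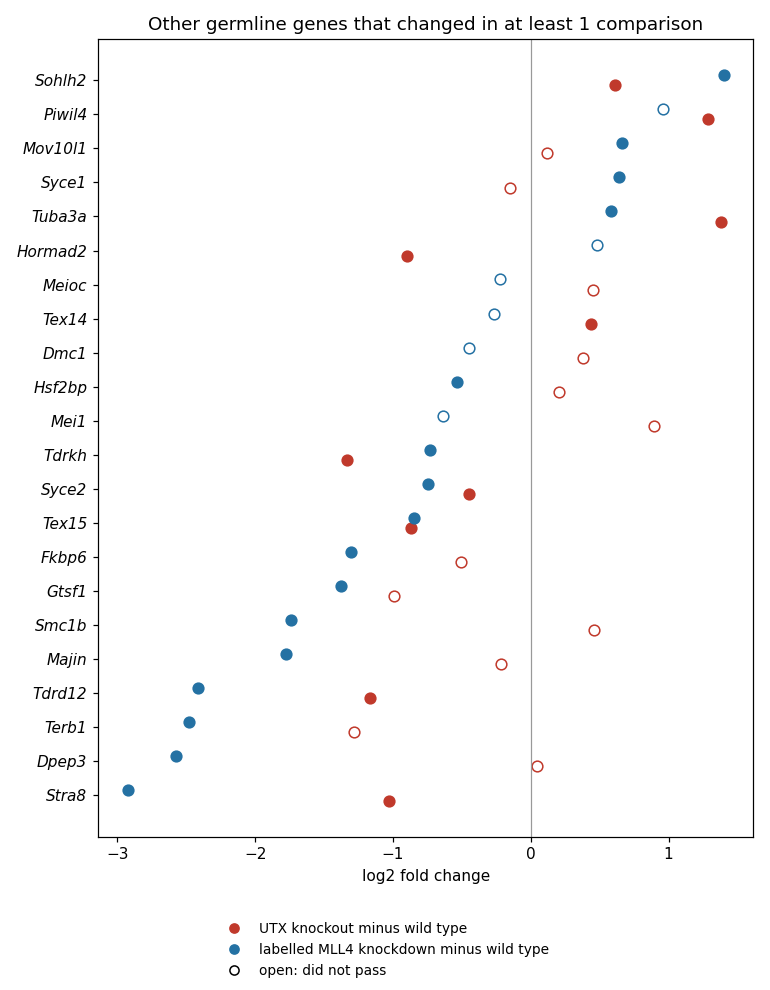
Log2 fold changes against wild type of the 22 other germline genes that passed in at least 1 comparison, in the UTX knockout and in the labelled MLL4 knockdown, with filled points where the adjusted p was under 0.05. Sohlh2 lies above 0 in both (0.61 and 1.40), and Tdrd12 and Stra8 below 0 in both (-1.17 and -2.41; -1.03 and -2.92).

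Of 18 tested genes of primordial germ cell specification, 3 rose and 2 fell in the UTX knockout (median 0.02), and 6 rose and 6 fell in the labelled MLL4 knockdown (median -0.01). Between the perturbed groups 3 were higher and 3 lower. The shares over all tested genes in these comparisons were 15.5%, 26.6% and 28.9%, against 5, 12 and 6 of 18 here. Prdm14, a regulator of germ cell fate and of naive pluripotency, measured 16.4, 18.9 and 21.1 CPM in wild type cells, 29.1, 38.5 and 36 in UTX knockout cells and 46.7, 55.2 and 53.9 in the labelled MLL4 knockdown. It rose by 0.88 (SE 0.15, adjusted p = 0.00364) and 1.46 (SE 0.15, adjusted p = 6.87e-05). Dnd1, which protects germ cell RNAs, rose by 1.03 (SE 0.18) and 1.31 (SE 0.18). Tfap2c, the partner of Prdm1 and Prdm14 in specification, fell from 70.2 ± 7.65 to 29.2 ± 1.34 CPM in the labelled MLL4 knockdown (-1.26, SE 0.13, adjusted p = 8.64e-05), where Alpl, the alkaline phosphatase used to stain germ cells, fell by 1.16 (SE 0.14). Lin28a, an RNA-binding regulator of let-7, fell in both (-0.69, SE 0.11, and -0.59, SE 0.11).

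Among genes of new DNA methylation, Dnmt3b fell in both perturbed groups, and Dnmt3a and Dnmt3l fell in the labelled MLL4 knockdown. Of 19 genes of the methylation machinery 2 rose and 2 fell in the UTX knockout (median 0.07), 4 rose and 3 fell in the labelled MLL4 knockdown (median 0.20), and 3 were higher and 3 lower between the perturbed groups. With 15.5%, 26.6% and 28.9% of all tested genes called, the 4, 7 and 6 of 19 lie near the background. Dnmt3b, a de novo methyltransferase, measured 523, 254 and 301 CPM in wild type cells, 152, 110 and 108 in UTX knockout cells and 104, 72.9 and 66.5 in the labelled MLL4 knockdown. Every perturbed library lay below wild type, and the log2 fold changes of Dnmt3b were -1.54 (SE 0.26, adjusted p = 0.00423) and -2.15 (SE 0.27, adjusted p = 0.000290). Dnmt3l, the catalytically inactive cofactor, measured 554, 770 and 562 CPM in wild type and 115, 77.7 and 70.9 in the labelled MLL4 knockdown, that is, -2.84 on the log2 scale (SE 0.20, adjusted p = 7.79e-06). In the UTX knockout it measured 408, 493 and 453, below wild type in each library, with a difference of -0.48 that did not pass (SE 0.19, adjusted p = 0.105). Dnmt3a fell by 1.10 in the labelled MLL4 knockdown (SE 0.17, adjusted p = 0.000960). Its log2 fold change of -0.60 in the UTX knockout (SE 0.17, adjusted p = 0.0343) was lost without wild type replicate 1 (0.0930), UTX knockout replicates 2 or 3 (0.137 and 0.132) or labelled MLL4 knockdown replicates 2 or 3 (0.0525 and 0.0519).

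Dnmt1 and Uhrf1, which maintain methylation, passed in no comparison with wild type in the lower direction. Dnmt1 stood at 525 ± 73.2 CPM in wild type cells, 634 ± 32.3 in UTX knockout cells and 583 ± 23.1 in the labelled MLL4 knockdown, differences of 0.27 (SE 0.12, adjusted p = 0.135) and 0.15 (SE 0.12, adjusted p = 0.371). Uhrf1, which brings Dnmt1 to replicated DNA, rose in the UTX knockout from 523 ± 4.36 to 726 ± 27.1 CPM (0.47, SE 0.09, adjusted p = 0.00768). Tet3, a 5-methylcytosine dioxygenase, rose in the labelled MLL4 knockdown from 13.4 ± 4.24 to 25.2 ± 0.348 CPM (0.91, SE 0.21, adjusted p = 0.00973). Tet1 differed there by 0.65 (SE 0.23, adjusted p = 0.0584) and Tet2 in the UTX knockout by 0.70 (SE 0.24, adjusted p = 0.0662). With the replicate number as a block both passed, at 0.70 (adjusted p = 0.0262) and 0.76 (0.0191), as they did with DESeq2 (0.0246 and 0.0281) and with no filter (0.00803 and 0.0119). Leaving out single wild type libraries moved both differences. Tet1 was 0.37 without wild type replicate 2 (adjusted p = 0.0340) and 0.93 without replicate 3 (0.0123), and Tet2 was 1.11 without replicate 3 (0.00405).

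**Figure D5:**
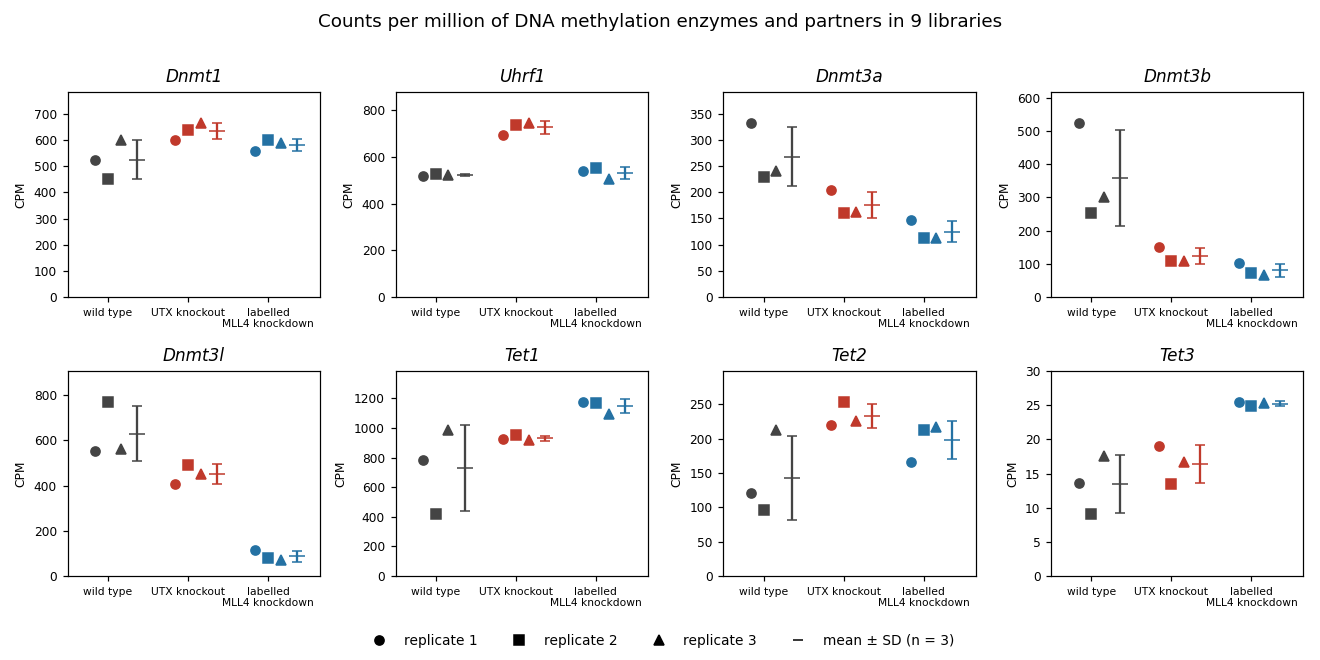
CPM of DNA methylation genes in each library, with the group mean and SD. Dnmt3b and Dnmt3l are lowest in the labelled MLL4 knockdown (81.2 and 87.8 CPM), Dnmt1 lies between 525 and 634 CPM in the 3 groups, and Uhrf1 is highest in the UTX knockout (726 CPM).

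Of 22 genes of PRC1.6 and H3K9 silencing 1 rose and 1 fell in the UTX knockout (median -0.05), 2 rose and 2 fell in the labelled MLL4 knockdown (median 0.19), and 4 were higher and 1 lower between the perturbed groups. The totals of 2, 4 and 5 of 22 compare with 15.5%, 26.6% and 28.9% of all tested genes. The changes in the UTX knockout were Wdr5, a scaffold shared with COMPASS complexes (0.44, SE 0.10, adjusted p = 0.0134, lost without UTX knockout replicate 2 with adjusted p = 0.0674), and Tfdp1, an E2f partner (-0.53, SE 0.10, adjusted p = 0.00621). Hdac1, a histone deacetylase, fell in the labelled MLL4 knockdown (-0.57, SE 0.09, adjusted p = 0.00149). Wdr5 and Tfdp1 were also called there, in the same directions as in the UTX knockout, and Setdb1 rose (0.31, SE 0.10, adjusted p = 0.0374). The calls of Wdr5, Tfdp1 and Setdb1 in the labelled MLL4 knockdown were lost in 4, 7 and 5 of the 9 left-out fits. E2f6, whose motif lies in the Ddx4 and Mael windows shown above, differed from wild type by -0.10 (SE 0.12, adjusted p = 0.615) and 0.30 (SE 0.12, adjusted p = 0.0927). Between the perturbed groups E2f6 was called higher in the labelled MLL4 knockdown, at 0.30 to 0.47 over the left-out fits. That call was lost without UTX knockout replicate 3 (adjusted p = 0.116) or labelled MLL4 knockdown replicates 1, 2 or 3 (0.0699, 0.0980 and 0.0806). Of the 6 genes whose windows hold CACGTG, Ddx4 rose and Mael fell in the labelled MLL4 knockdown, Sycp1 and Tdrd1 fell in the UTX knockout, and Sycp3 and Hormad1 passed in neither comparison with wild type. Of the 3 with neither motif, Dazl rose in both groups, Prdm1 rose in the labelled MLL4 knockdown and Tex101 fell in the UTX knockout. The Tex101 call is not counted as support, as stated above.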

How the data were processed

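Raw read counts by gene symbol were deposited by the authors, with a column for each library. Per the submitters' processing notes the tools were STAR 2.4 and HTSeq 0.6.1. The same notes list mm9 and hg19 with no role. Annotation and strand setting: not given in the sources used here. CPM with TMM factors, edgeR's filterByExpr (by group, minimum count 10), and the two-sided quasi-likelihood test (all 9 libraries, group as the only term) were computed here with edgeR 4.0.16 in R 4.3.3. P-values were Benjamini-Hochberg adjusted over all 14772 tested genes, with a threshold of 0.05. DESeq2 1.42.0 was an alternative, as were the settings in the closing section, and the fit was tested on simulated data. With 3 libraries on each side an exact permutation test reaches p = 0.1 at best and was not used.

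The 10 genes and the other lists were chosen with earlier results of these data known. Named genes are all 10, changed members of the other lists, Kdm6a, Mll2 and Uty, and the 3 tested genes of highest correlation with each of the 10, of which some are given. Symbols of clones, gene models, small RNAs and pseudogenes were left out of that ranking. Chpt1, the neighbouring genes and the uncalled differences of Dnmt1, Tet1, Tet2, Dnmt3l and E2f6 were added after the values were seen, as were the promoter, overlap and shared-word counts. Lengths and coordinates come from GENCODE M21 on GRCm38, and promoters from RefSeq on GRCm38.p6. The build used for the counts may be another.

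Libraries with the same replicate number shared deviations from the means of their groups: correlations over genes for replicates 1, 2 and 3 were 0.415, 0.168 and 0.381 between UTX knockout and wild type, 0.416, 0.182 and 0.238 between labelled MLL4 knockdown and wild type, and 0.467, 0.181 and 0.308 between the perturbed groups. Pairs with unlike replicate numbers ran from -0.412 to 0.226. For replicate 2 some unlike pairs came near or above the like ones. UTX knockout replicate 3 with wild type replicate 2 gave 0.158, and labelled MLL4 knockdown replicate 2 with UTX knockout replicate 3 gave 0.226. The replicate numbers come from the titles and were treated as pairing the libraries in the alternative with a replicate block. Within groups, every pair of libraries differed by more than sampling noise (6.42 to 56.5 as chi-square over its degrees of freedom).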

Additional observations from a re-analysis of the deposited data

How the results depend on the processing

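With the replicate number as a block, 3446 genes of all tested passed in the UTX knockout against wild type, where 2285 passed without it, and no call among the 10 germline genes changed. Among the other named genes it was checked for called differences and for Dnmt1, Dnmt3l, Tet1, Tet2, E2f6 and Mll2. Of these it changed the calls of Tet1, Tet2 and Mll2 given in the text. Il6st, Dusp27, Gpa33 and the uncalled Slc2a3 were not checked. A fit of only the 2 groups compared gave 1240 there, with 3 of the 10 germline genes, 6 other germline genes and 1 gene of PRC1.6 and H3K9 silencing, and it gave 2 PRC1.6 genes in the labelled MLL4 knockdown against wild type and 11 methylation genes between the perturbed groups. Lane 2 alone gave 74, 1341 and 1535 genes in the 3 comparisons (UTX knockout and labelled MLL4 knockdown against wild type, then labelled MLL4 knockdown against UTX knockout). Of the 10 germline genes it gave 0 in the first and 2 in the third, of other germline genes 1, 8 and 9, of germ cell specification 0, 7 and 3, of the methylation machinery 0, 3 and 2, and of PRC1.6 0, 1 and 2. PRC1.6 counts in the labelled MLL4 knockdown were 7 with DESeq2 and 2 with no filter, and 3 between the perturbed groups with a stricter filter.

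Leaving out 1 library at a time gave 833 to 2854, 2273 to 4108 and 2556 to 5281 genes in the 3 comparisons. The 10 germline genes gave 2 to 6, 4 to 5 and 5 to 6, other germline genes 3 to 14, 11 to 19 and 11 to 20, germ cell specification 4 to 6, 10 to 13 and 5 to 9, the methylation machinery 2 to 5, 5 to 9 and 2 to 9, and PRC1.6 1 to 3, 1 to 5 and 2 to 7. Of the calls over all libraries, every left-out fit kept 2 of 5, 4 of 5 and 5 of 6 among the 10 germline genes.

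Differences that changed sign were all uncalled. Over the left-out fits, the UTX knockout against wild type gave -0.44 to 0.19 for Hormad1, -0.36 to 0.11 for Prdm1 and -0.17 to 0.018 for E2f6, each above 0 in 1 fit (without wild type replicate 1 for Hormad1 and Prdm1, without UTX knockout replicate 3 for E2f6). The labelled MLL4 knockdown against wild type gave -0.11 to 0.047 for Sycp1, above 0 without wild type replicate 1 or labelled MLL4 knockdown replicate 2. It gave -0.32 to 0.35 for Sycp3, above 0 without wild type replicate 1, and -0.51 to 0.16 for Mll2, above 0 without wild type replicate 3. Hormad1 ranged from -0.13 to 0.40, and was -0.011 with the stricter filter and -0.038 in lane 2 alone. The cause was not tested. Depth limits Tex101, which had 4 to 23 counts a library.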
